A study of Mus musculus with 9 samples.

Results

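The 10 genes described here encode chaperones of the heat shock response and regulators of the unfolded protein response: Hspa1a, Hspa1b, Hspa8, Hsph1, Dnajb1, Hspb1, Hspa5, Atf4, Ddit3 and Xbp1. They were chosen by name from the 40202 genes of a count table, and all 10 were among the 25273 genes that passed a filter on low counts. The samples are wild-type mouse retinal pigment epithelium (RPE), the pigmented cell layer behind the photoreceptors, and were measured by bulk RNA sequencing. The young control group was 9 months old. The old control group was 24 months old, and the vutiglabridin group was also 24 months old and had been treated for 6 months with vutiglabridin, a glabridin derivative made by synthesis. Each group had 3 libraries, made with a stranded total RNA kit. The labels name no strain, sex, vehicle or batch and do not say whether libraries came from separate animals, so the p-values measure only the spread between these samples, which may be technical. The 9 RPE markers Rpe65, Rlbp1, Best1, Rgr, Lrat, Ttr, Slc16a8, Rdh5 and Stra6 each reached a mean of 1 CPM (counts scaled to library size) or more in every group.

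Cells that accumulate misfolded protein in the cytosol activate heat shock factors, which bind heat shock elements in promoters and raise the transcription of chaperone genes. Misfolded protein in the endoplasmic reticulum (ER) is sensed by IRE1, PERK and ATF6, which work through spliced Xbp1 messenger RNA, through translation of Atf4, and through cleaved ATF6. Much of the control of Xbp1 and Atf4 is therefore by splicing and translation, which a count of reads per gene does not resolve. The RPE ingests and degrades shed photoreceptor outer segments daily and secretes much protein, so both systems are of interest in it.

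Promoter windows were searched for some classical elements of these pathways, and those of 1 pair of members are nearly alike. The bases are from the RefSeq gene table of build GRCm38.p6, read in the direction of transcription, and end at the base before the annotated start. A table window runs from 250 bases before to 50 bases after a start, and 11 windows of 9 members were found there, with none for Hspa8. Bases outside the windows were not searched. The heat shock element was searched on both strands as GAANNTTC, which is its own reverse complement, and as a longer form with a further GAA after 2 more bases, whose matches also hold the shorter form. The form TTCNNGAA alone was not searched. The Hspa1a promoter (chr17:34972157-34972406, minus strand) holds 1 short element, in capitals, from 104 to 97 bases before the start.
Hspa1a: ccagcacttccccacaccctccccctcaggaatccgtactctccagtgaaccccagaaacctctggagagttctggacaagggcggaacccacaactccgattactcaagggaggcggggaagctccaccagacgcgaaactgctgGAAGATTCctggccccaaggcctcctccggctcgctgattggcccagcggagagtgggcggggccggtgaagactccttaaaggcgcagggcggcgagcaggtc
The Hspa1b promoter (chr17:34959239-34959488, minus strand) holds the same element at the same place. It differs from that of Hspa1a at 3 of 250 bases, which are in capitals.
Hspa1b: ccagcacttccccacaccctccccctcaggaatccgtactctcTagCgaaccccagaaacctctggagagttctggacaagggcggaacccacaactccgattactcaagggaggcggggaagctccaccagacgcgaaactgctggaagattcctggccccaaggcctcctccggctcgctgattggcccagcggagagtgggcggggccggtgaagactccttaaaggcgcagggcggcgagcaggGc
The Hspb1 promoter (chr5:135887669-135887918, plus strand) holds 2 short elements, in capitals, at 117 to 110 and 97 to 90 bases before the start.
Hspb1: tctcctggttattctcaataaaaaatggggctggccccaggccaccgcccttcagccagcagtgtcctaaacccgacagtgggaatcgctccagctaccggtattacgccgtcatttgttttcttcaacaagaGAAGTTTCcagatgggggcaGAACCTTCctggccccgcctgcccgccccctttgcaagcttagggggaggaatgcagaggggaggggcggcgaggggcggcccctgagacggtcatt
The Hspa5 promoter (chr2:34771840-34772089, plus strand) is shown for an ER stress response element, CCAAT and CCACG with 9 bases between them on either strand, in capitals from 65 to 47 bases before the start.
Hspa5: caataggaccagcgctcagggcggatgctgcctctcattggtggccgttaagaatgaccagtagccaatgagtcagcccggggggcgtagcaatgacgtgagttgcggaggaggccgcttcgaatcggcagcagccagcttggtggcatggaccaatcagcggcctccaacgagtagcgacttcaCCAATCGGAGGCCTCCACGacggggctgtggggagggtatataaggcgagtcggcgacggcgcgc
The short heat shock element was in 5 of the 11 member windows and in 7.86% of all 32851 windows. Both Hsph1 windows are among the 5 and overlap at the same site. The longer form was in both Hsph1 windows, just after the start, and in 0.603% of all. The ER stress response element was in the Hspa5 window and in 0.119% of all, and the C/EBP-ATF element TGATGNAA was in none of the 11 and in 3.97% of all. A match is a run of letters and not a demonstration that a factor binds there.

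Gene positions below are those deposited with the counts. Hspa1a lies on chromosome 17 from 35188335 to 35191132 and Hspa1b on the same chromosome and strand from 35175405 to 35178214. Their longest open reading frames were 99.43% identical, with 11 differing columns of 1929, and 47.1% of the 100-base windows of the Hspa1a transcript also occur in Hspa1b. The share of reads from each of the pair is therefore uncertain. Hspa5 (chromosome 2, 34662102 to 34666541) shares 3596 of its 4440 bases with Rabepk on the opposite strand. Rabepk had 9384 to 12302 counts and Hspa5 10568 to 13597, and since strand use in counting is not stated, their reads cannot be told apart. Ddit3 (chromosome 10, 127126662 to 127132160) shares 77 bases with Mbd6 and 71 with Mars1. The other positions are chromosome 9, 40712572 to 40716498, for Hspa8, which contains 3 small nucleolar RNA genes with 7 to 38 counts each, and chromosome 5, 149540308 to 149562594, for Hsph1, which shares 398 bases with Gm20005 at 0 to 9 counts. Dnajb1 (chromosome 8, 84334804 to 84339282), Hspb1 (chromosome 5, 135916773 to 135918417), Atf4 (chromosome 15, 80139385 to 80141746) and Xbp1 (chromosome 11, 5470641 to 5475993) overlap no other gene of the table. Some other genes named below do overlap a neighbour, among them Stub1 with Jmjd8 and Mir3082, Ppp1r15a with Tulp2 and Fosl1 with Ccdc85b. The reads in those overlaps were not examined.

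Total counts per library were 44196290 to 56797891. The lowest member count in any library was 181, for Hspb1. Vutiglabridin replicate 2 stood apart from the rest in markers of other tissue. Its summed level of 5 haemoglobin and erythroid markers was 5131 CPM, against 91.1 to 644 CPM in the other libraries, and that of 7 stratified epithelium markers was 311 CPM, against 2.35 to 52.0 CPM. Its summed RPE marker level of 8869 CPM was the lowest of the 9, and that of vutiglabridin replicate 3 was next, at 9338 CPM, against 11817 to 17657 CPM elsewhere. Values below are in CPM on library sizes scaled by the trimmed mean of M values (TMM). Errors are standard deviations (SD) over 3 libraries for levels and standard errors (SE) for log2 fold changes, and a gene is called at an adjusted p under 0.05.

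For each of the 5 inducible cytosolic chaperone genes the highest of the 9 libraries was vutiglabridin replicate 2. Hspa1a, an inducible HSP70, stood at 14.4, 11.7 and 12.4 CPM in young replicates 1 to 3 and at 11.6, 10.7 and 11.5 CPM in the old controls. In the vutiglabridin libraries it was at 11.4, 20.1 and 10.5 CPM, so that replicate 2 alone was above the control range. Hspa1b, its near copy, stood at 11.6, 9.08 and 10.8 CPM in young and 11.3, 10.8 and 12.2 CPM in old controls. It was at 9.84, 28.1 and 13.5 CPM after vutiglabridin. The ratio of Hspa1b to Hspa1a counts was 0.773 to 0.872 in the young, 0.967 to 1.06 in the old and 0.860, 1.40 and 1.28 in the vutiglabridin libraries. Replicates 2 and 3 of the last group thus had the highest share of the pair's counts in Hspa1b.

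Dnajb1, the HSP40 co-chaperone that delivers substrates to HSP70, stood at 20.03, 15.2 and 16.9 CPM in young and 15.9, 14.3 and 15.5 CPM in old controls. After vutiglabridin it was at 21.3, 39.5 and 14.2 CPM, the first 2 libraries above both control groups and the third just below them. Hsph1, an HSP110 that acts as nucleotide exchange factor for HSP70, stood at 35.3, 29.4 and 30.8 CPM in young and 28.8, 31.8 and 26.3 CPM in old controls. Its vutiglabridin values were 49.1, 59.3 and 31.7 CPM. The third of these lay just under the highest old control, so the groups overlapped at 1 library each. Hspb1, the small heat shock protein HSP27 that holds unfolded protein for refolding, stood at 5.88, 3.98 and 4.32 CPM in young and 3.69, 4.19 and 4.11 CPM in old controls. It reached 5.47, 8.32 and 6.44 CPM after vutiglabridin. All 3 of these were above every old control, while young replicate 1 lay among them.

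Hspa8 and Hspa5 had their highest library among the young controls. Hspa8, the constitutive HSC70, stood at 356, 231 and 234 CPM in young, 223, 259 and 220 CPM in old controls and 250.2, 232 and 179 CPM after vutiglabridin. Its highest library was young replicate 1 and its lowest vutiglabridin replicate 3. Hspa5, the HSP70 of the ER lumen also called BiP, stood at 287, 270.1 and 219 CPM in young and 240, 247 and 211 CPM in old controls. At 259, 254 and 204 CPM after vutiglabridin its range covered much of both control ranges.

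The transcription factors of the unfolded protein response lay in narrow ranges over the 6 controls. Atf4, the translationally controlled activator downstream of the eIF2 alpha kinases, stood at 60.5, 51.9 and 50.5 CPM in young and 56.9, 59.2 and 54.5 CPM in old controls. After vutiglabridin it was at 96.8, 118.7 and 52.7 CPM. Ddit3, which encodes CHOP, a factor linked to cell death under lasting ER stress, stood at 20.3, 21.001 and 20.1 CPM in young and 22.0, 23.6 and 23.0 CPM in old controls. It was at 30.3, 45.5 and 20.4 CPM after vutiglabridin, the third library back within the young range. Xbp1, whose IRE1-spliced form activates ER chaperone genes, stood at 68.9, 61.3 and 60.5 CPM in young, 66.8, 67.4 and 63.3 CPM in old controls and 76.7, 88.3 and 65.2 CPM after vutiglabridin. For all 3 factors, replicates 1 and 2 were above the 6 controls and replicate 3 was not.

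**Figure D1:**
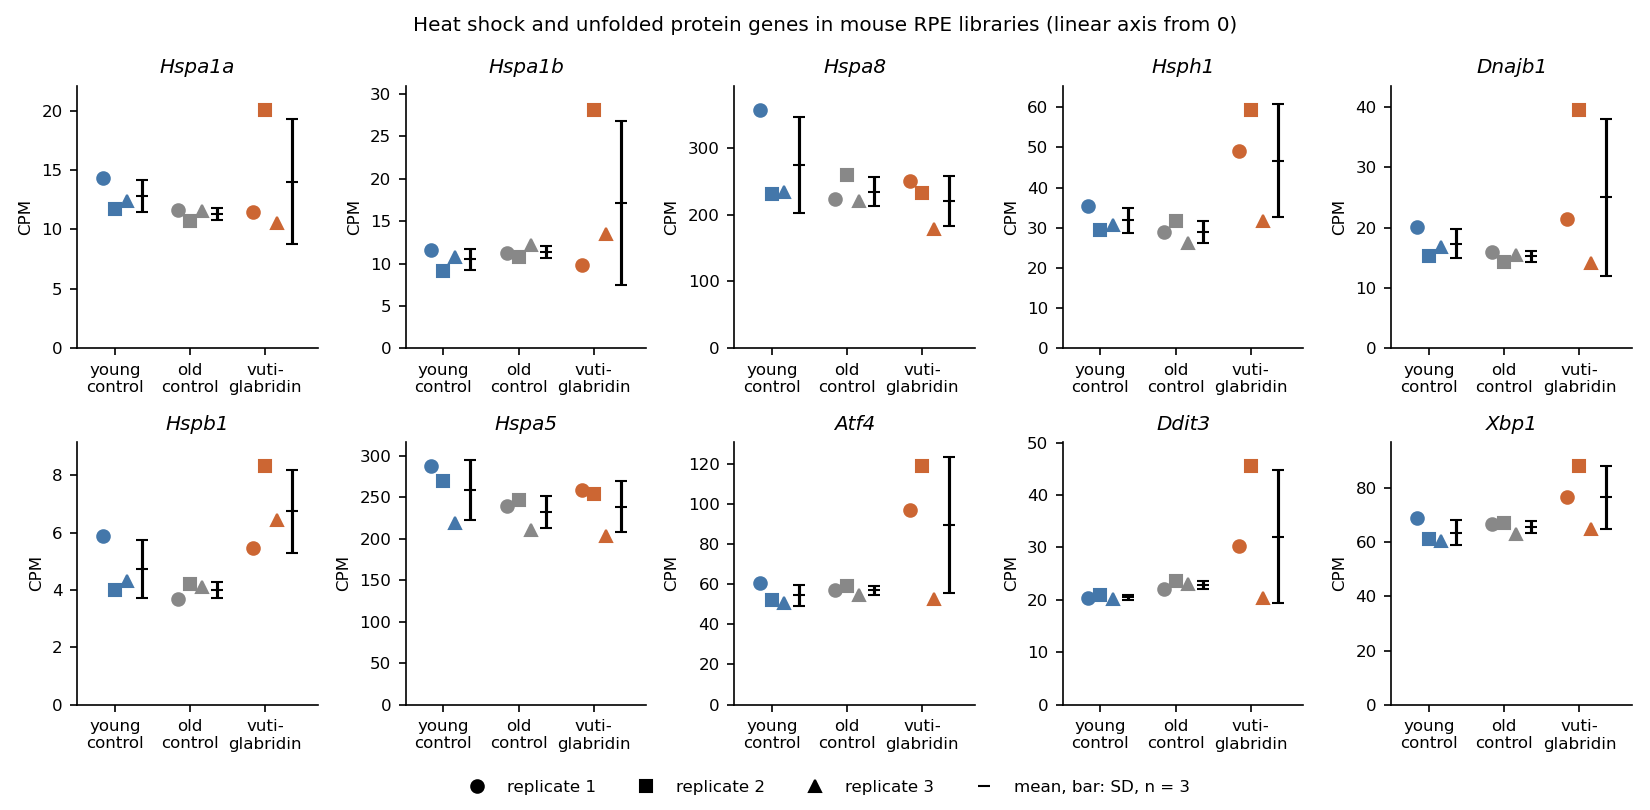
CPM of each member in the 9 libraries, 1 panel per gene on a linear axis from 0, with the marker shape giving the replicate number and the black bar the mean and SD of 3 libraries. Vutiglabridin replicate 2 is the highest of the 9 libraries for 8 genes, and young control replicate 1 for Hspa8 and Hspa5.

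Vutiglabridin replicate 2 was the highest of the 9 libraries for 8 of 10 members, where it was the highest for 20.2% of all tested genes. Against the range of the 3 old controls, vutiglabridin replicate 1 had 7 members above and 1 below, with 35.1% of tested genes above and 40% below. Replicate 2 had 9 members above and 0 below, with 37.3% of tested genes above and 42.5% below. Replicate 3 had 2 members above, Hspa1b and Hspb1, and 6 below, with 35.1% of tested genes above and 38% below. Replicate 3 lay below the old controls, and replicates 1 and 2 above them, for Dnajb1, Hspa5, Atf4 and Ddit3. The median SD of log2 CPM over the members was 0.48 in the vutiglabridin group and 0.25 over all tested genes, while in the young group the medians were 0.17 and 0.19 and in the old group 0.086 and 0.11. The widest spread was that of Hspa1b, with an SD of 0.78 on the log2 scale after vutiglabridin.

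The first comparison asked whether these genes differ between old and young RPE. In edgeR's quasi-likelihood test 0 of 10 members were called, against 1.68% of all tested genes, and 0 had an unadjusted p under 0.05, against 11.7%. DESeq2 and limma-voom also called 0. The adjusted p-values ran from 0.726 to 0.961. The median log2 fold change of the members was -0.15, against -0.01 over all tested genes, with 4 of 10 members and 47.6% of all tested genes above 0. The groups did not overlap for Ddit3, which had higher values in old controls (0.16 ± 0.23, adjusted p = 0.878), nor for Hspa1a, with lower ones (-0.19 ± 0.21, adjusted p = 0.835). Among all tested genes 13.2% were without overlap and higher and 12.1% without overlap and lower. The 95% interval of the log2 difference was -0.47 to 0.60 for Atf4, -0.44 to 0.13 for Hspa5 and -0.88 to 0.50 for Dnajb1, so that differences of these sizes lay within the error. Young replicate 1 was the highest young library for 9 members, all but Ddit3, and without it the Hspa8 value moved from -0.23 to 0.01. In bulk RNA, fewer cells of a type and less RNA per cell cannot be told apart, here or below.

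The second comparison asked what vutiglabridin did in old RPE. Fitted values were above 0 for 9 of 10 members, with a median log2 fold change of 0.54 against -0.01 over all tested genes, of which 48.5% were above 0. In edgeR 0 of 10 members were called, against 4.34% of all tested genes, and 4 had an unadjusted p under 0.05, against 24.7%. Hspb1 had the smallest p, at 3.996 ± 0.271 CPM in old controls and 6.74 ± 1.45 CPM after vutiglabridin (0.75 ± 0.20, adjusted p = 0.0589). It was the 1 member with higher values and no overlap between the groups, as were 14.7% of tested genes, and 0 members were lower without overlap, as were 17.5%. Hsph1 followed, from 29.0 ± 2.74 to 46.7 ± 14.0 CPM (0.69 ± 0.19, adjusted p = 0.0684). Both carry heat shock elements near their start, as do Hspa1a and Hspa1b, for which the values were 0.31 ± 0.21 (adjusted p = 0.389) and 0.59 ± 0.32 (adjusted p = 0.285). With the near copies summed to 1 gene the value was 0.46 ± 0.27 (adjusted p = 0.312). Dnajb1, for which no searched element matched, had 0.72 ± 0.31 (adjusted p = 0.190). A link between promoter matches and fold changes was not tested.

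Among the regulators Atf4 went from 56.9 ± 2.37 to 89.4 ± 33.7 CPM (0.65 ± 0.24, adjusted p = 0.136). Ddit3 had 0.49 ± 0.23 (adjusted p = 0.214) and Xbp1 0.22 ± 0.11 (adjusted p = 0.243). The values of Hspa8 and Hspa5 lay near 0. Hspa8 had -0.09 ± 0.18, with an interval of -0.49 to 0.32, and Hspa5 had 0.04 ± 0.13, with an interval of -0.25 to 0.32. A change of up to 0.32 in Hspa5 was within the error, and its reads cannot be told apart from those of Rabepk.

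**Figure D2:**
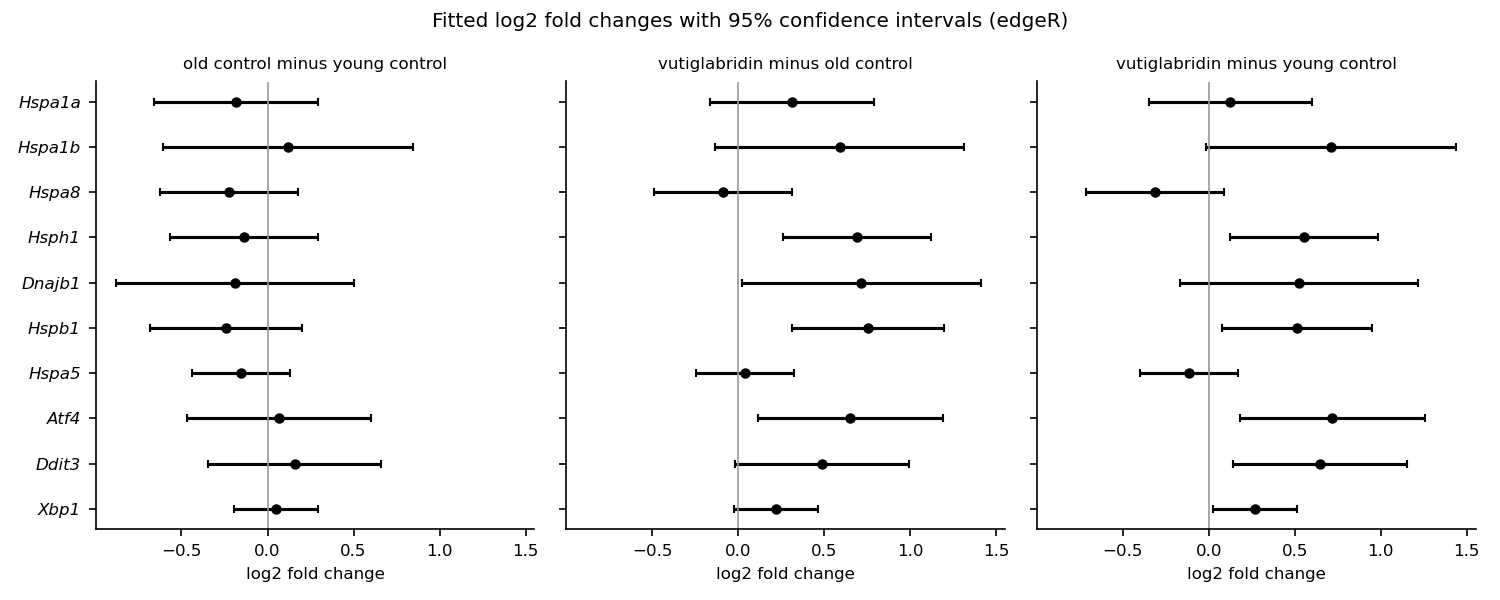
Fitted log2 fold change (x axis) of each member (y axis) in the 3 comparisons, with points for edgeR estimates from 9 libraries and bars for 95% confidence intervals. Intervals for Hsph1, Dnajb1, Hspb1 and Atf4 lie above 0 for vutiglabridin minus old control before adjustment over 25273 genes, and none of the 10 genes is called after it.

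These results turned on the test and on single libraries. DESeq2 and limma-voom with quality weights each called Hsph1, Hspb1 and Atf4, with adjusted p of 0.00912, 0.00537 and 0.0391 in DESeq2 and 0.0141, 0.0279 and 0.0284 in limma-voom. Of all genes, DESeq2 called 13.3% and limma-voom 10.7%. Without vutiglabridin replicate 3, edgeR called 6 members higher, Hsph1, Dnajb1, Hspb1, Atf4, Ddit3 and Xbp1, against 15.9% of all genes tested, and the member median was 0.74. In that fit Atf4 had 0.93 (adjusted p = 0.00092) and Hsph1 0.91 (adjusted p = 0.00165). Without vutiglabridin replicate 2 the median was 0.13, 0 members were called and 2 had an unadjusted p under 0.05. Hsph1 then had 0.48 (adjusted p = 0.167), Hspb1 0.58 (adjusted p = 0.138), Dnajb1 0.23, Ddit3 0.15, Xbp1 0.11 and Hspa1b 0.04. Without both vutiglabridin replicate 2 and young replicate 1, the median was also 0.13, with Hspb1 at 0.58 (adjusted p = 0.0617). Without young replicate 1 alone Hspb1 was called (0.75, adjusted p = 0.0457), as were 4.31% of all genes. With 1 library left out, Hspb1 ranged from 0.58 to 0.88 and Atf4 from 0.40 to 0.93.

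**Figure D3:**
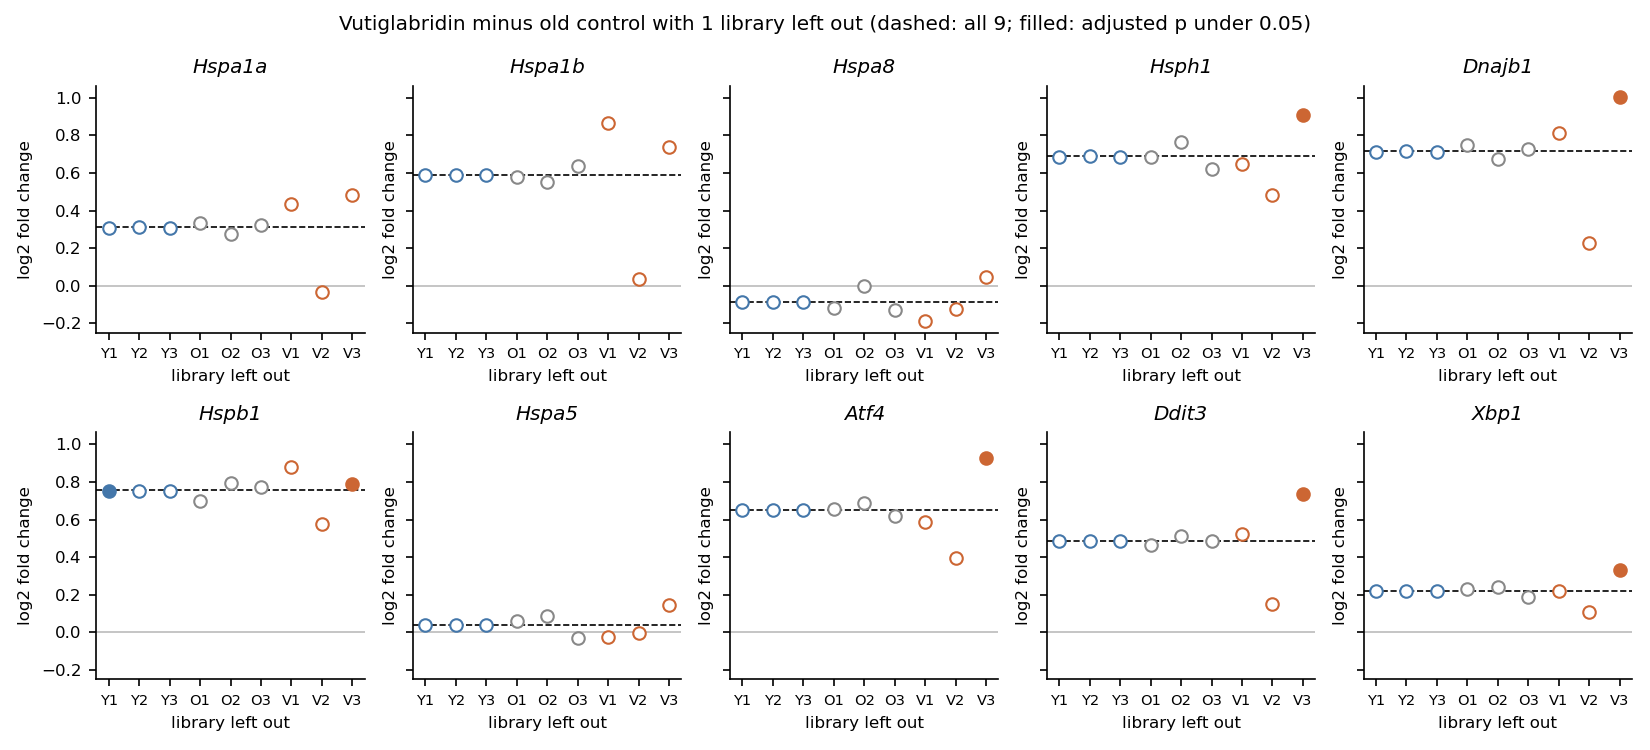
Log2 fold change of vutiglabridin minus old control (y axis) with each library left out in turn (x axis: Y young control, O old control, V vutiglabridin, each with its replicate number), a dashed line for all 9 libraries and filled points for an adjusted p under 0.05 in edgeR. Leaving out V3 gives 6 called members, and leaving out V2 brings the median of the members to 0.13.

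The third comparison set vutiglabridin against young RPE, with the same vutiglabridin libraries as the second. In edgeR 0 of 10 members were called, against 16.7% of all tested genes, and 5 had an unadjusted p under 0.05, against 34.2%. The member median was 0.52, against -0.01 over all tested genes, and 8 members and 49.4% of all were above 0. Atf4 had 0.72 ± 0.24 (adjusted p = 0.0675), Ddit3 0.65 ± 0.23 (adjusted p = 0.0755) and Hsph1 0.55 ± 0.19 (adjusted p = 0.0738). Hspb1 had 0.51 ± 0.20 (adjusted p = 0.0965), Hspa1b 0.71 ± 0.32 (adjusted p = 0.154), Dnajb1 0.53 ± 0.31 (adjusted p = 0.258) and Xbp1 0.27 ± 0.11 (adjusted p = 0.113). Hspa1a had 0.13, Hspa5 -0.12 and Hspa8 -0.31, and 0 members were without overlap, against 15.9% of tested genes higher and 17.3% lower. DESeq2 called Hsph1, Atf4 and Ddit3, and limma-voom called these and Xbp1, against 23.4% and 15.1% of all genes. Without vutiglabridin replicate 3, 5 members were called, Hsph1, Dnajb1, Atf4, Ddit3 and Xbp1, against 23.7% of all. Without vutiglabridin replicate 1 only Hspa1b was called (0.99, adjusted p = 0.0355), against 13.9% of all, and without replicate 2 the median was 0.17 with 0 called.

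Partner genes of the heat shock response were counted beside the members. Of all tested genes, 1.68% were called between old and young, 4.34% between vutiglabridin and old control and 16.7% between vutiglabridin and young. Of 28 other cytosolic and mitochondrial heat shock proteins and co-chaperones, 0 were called between old and young or between vutiglabridin and old control, where the list median was 0.06. In the latter, 5 had an unadjusted p under 0.05, against 24.7% of all tested genes. Bag3, the co-chaperone that couples HSP70 to selective autophagy, stood at 17.1, 18.2 and 18.8 CPM in young, 22.7, 21.1 and 23.0 CPM in old controls and 35.8, 51.5 and 26.8 CPM after vutiglabridin. All 3 vutiglabridin values were above both control groups (0.77 ± 0.19 against old, adjusted p = 0.0507). Of all tested genes, 14.7% were higher without overlap against old control and 15.9% against young. The share above both at once was not counted. Dnajb5 and Dnajb6, further HSP40 genes, had 0.89 ± 0.25 (adjusted p = 0.0657) and 0.37 ± 0.09 (adjusted p = 0.0539). Fkbp4, an HSP90 co-chaperone, had -0.35 ± 0.12 (adjusted p = 0.124). Without vutiglabridin replicate 3, 6 of the 28 were called higher, where 15.9% of all tested genes were called in either direction. Without vutiglabridin replicate 1, 1 was called lower. The abundant Hsp90aa1, a cytosolic HSP90, stood at 198, 223 and 182 CPM in old controls and 220.2, 159.7 and 152 CPM after vutiglabridin, a value chosen after it was seen.

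Of 7 heat shock factors and chaperone regulators 0 were called in these first 2 comparisons, with a median of -0.11 between vutiglabridin and old control. Hsf1, the main heat shock factor, stood at 21.02, 19.7 and 21.2 CPM in old controls and 27.5, 29.1 and 24.9 CPM after vutiglabridin (0.40 ± 0.11, adjusted p = 0.0657). It was the 1 gene of this list called higher without vutiglabridin replicate 3. Against young RPE, Bag3 (1.08 ± 0.19, adjusted p = 0.00765), Dnajb5, Dnajb6 and Hsf1 (0.58 ± 0.11, adjusted p = 0.00942) were higher in the vutiglabridin group, which differs in both age and treatment. Fkbp4 (-0.48 ± 0.12, adjusted p = 0.0272) and Stub1, the CHIP ubiquitin ligase (-0.33 ± 0.09, adjusted p = 0.0303), were lower. The Bag3 and Hsf1 calls held with each of the 9 libraries left out. Dnajb5 lost its call without young replicates 1 or 3 or vutiglabridin replicate 2 (adjusted p up to 0.0592), and Dnajb6 lost it without any 1 library other than vutiglabridin replicate 3 (up to 0.0948). Fkbp4 lost it without young replicates 1 or 2, old replicate 1 or vutiglabridin replicates 2 or 3 (up to 0.0898). Stub1 lost it without young replicates 1 or 2, any old replicate or vutiglabridin replicate 2 (up to 0.0870).

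Among the sensors of ER and nutrient stress, Ern1 and Eif2ak4 were called higher with vutiglabridin than in old control by edgeR. Of 10 stress sensors and eIF2 alpha kinases, 0 were called between old and young, against 1.68% of all tested genes. Against old control 2 were called higher with vutiglabridin, where 4.34% of all tested genes were called in either direction. The list median was 0.05. Ern1, which encodes IRE1 alpha, the endonuclease that splices Xbp1, stood at 66.4, 67.6 and 70.9 CPM in old controls and 112.5, 120.8 and 84.1 CPM after vutiglabridin (0.63 ± 0.13, adjusted p = 0.0325). Eif2ak4, the amino acid sensing kinase GCN2, stood at 75.5, 71.7 and 78.1 CPM in old controls and 99.9, 95.2 and 92.9 CPM after vutiglabridin (0.35 ± 0.08, adjusted p = 0.0408). The groups did not overlap for either, as for 14.7% of all tested genes with higher values. Atf6 had 0.32 ± 0.08 (adjusted p = 0.0566), while Eif2ak3, which encodes PERK, stood at 72.0, 75.5 and 77.1 CPM in old controls and 80.6, 73.1 and 71.0 CPM after vutiglabridin. The Ern1 call was lost without young replicate 2, any old replicate, or vutiglabridin replicates 1 or 2 (adjusted p up to 0.151). The Eif2ak4 call was lost without young replicates 2 or 3, any old replicate, or vutiglabridin replicates 1 or 2 (up to 0.189). Over all 19 alternatives the Ern1 call was lost in 9 and the Eif2ak4 call in 11. In alternatives other than leaving out 1 library, adjusted p reached 0.0671 for Ern1 and 0.0705 for Eif2ak4. Against young RPE, Ern1, Eif2ak4 and Atf6 (0.48 ± 0.08, adjusted p = 0.0065) were called higher, and of these only Ern1 lost its call with 1 library left out, without young replicates 1 or 2 (up to 0.0541). With only the 2 groups compared Ern1 and Eif2ak4 lost that call (adjusted p = 0.0569 and 0.0556), and Ern1 lost it with both young replicate 1 and vutiglabridin replicate 2 left out (0.0790).

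Of 27 other ER chaperones and degradation factors 0 were called between old and young, with a median of -0.09. Between vutiglabridin and old control 0 were called, with a median of -0.06. There 2 had an unadjusted p under 0.05, against 24.7% of all tested genes. Without vutiglabridin replicate 3, 1 of the 27 was called higher and 1 lower. The 2 genes at an unadjusted p under 0.05 were Edem1, which sorts misfolded glycoproteins for degradation (0.21 ± 0.09, adjusted p = 0.178), and Creld2 (-0.29 ± 0.12, adjusted p = 0.179). Against young RPE Edem1 was higher (0.48 ± 0.09, adjusted p = 0.00776) with each library left out too. Pdia4, a protein disulfide isomerase (-0.45 ± 0.11, adjusted p = 0.0246), and Derl3, a factor of ER-associated degradation (-0.90 ± 0.25, adjusted p = 0.0340), were lower. Untreated old controls also differed from young ones here. Derl3, at 54 to 140 counts, stood at 1.86, 3.08 and 2.41 CPM in young, 1.64, 1.09 and 1.40 CPM in old controls and 1.30, 1.16 and 1.46 CPM after vutiglabridin. Edem1 stood at 44.5, 46.8 and 41.1 CPM in young, 53.1, 55.8 and 51.6 CPM in old controls and 66.6, 61.8 and 56.9 CPM after vutiglabridin. Pdia4 lost its call without young replicates 1 or 2, old replicate 1 or vutiglabridin replicate 2 (up to 0.0846). Derl3 lost it without young replicates 2 or 3, old replicates 1 or 3, or vutiglabridin replicates 1 or 2 (up to 0.122).

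Of 23 targets of ATF4 and the integrated stress response 0 were called between old and young. Between old control and vutiglabridin the median was 0.28, and 11 had an unadjusted p under 0.05, against 24.7% of all tested genes. In that comparison 1 was called higher, where 4.34% of all tested genes were called in either direction. The gene was Slc7a11, the cystine transporter subunit, at 31.4, 24.8 and 31.7 CPM in old controls and 132.7, 81.8 and 45.9 CPM after vutiglabridin (1.57 ± 0.35, adjusted p = 0.0452). Its call was lost without any 1 library other than vutiglabridin replicate 3 (adjusted p up to 0.186). The count of 1 became 2 without young replicate 1 and 6 without vutiglabridin replicate 3, and 1 gene was called lower without vutiglabridin replicate 1. The count of higher genes was 6 by DESeq2, 7 by limma-voom, 5 when genes needed 1 CPM in 3 libraries, and 0 with no filter, the replicate block, only the 2 groups compared or the 7 libraries without young replicate 1 and vutiglabridin replicate 2. Cebpb, a CCAAT-binding activator, had 1.90 ± 0.47 (adjusted p = 0.0570), and Eif4ebp1, a translation inhibitor, 0.41 ± 0.12 (adjusted p = 0.0755). Ppp1r15a, which encodes the phosphatase subunit GADD34 that reverses eIF2 alpha phosphorylation, stood at 14.9, 15.9 and 15.7 CPM in old controls and 33.2, 44.5 and 16.6 CPM after vutiglabridin. As for Atf4 and Ddit3, replicates 1 and 2 were well above the controls and replicate 3 was near them. Phgdh and Psat1, enzymes of serine synthesis, had -0.54 ± 0.16 (adjusted p = 0.0845) and -0.39 ± 0.17 (adjusted p = 0.184).

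Against young RPE, 7 of the 23 were higher and 2 lower in the older, treated group, against 16.7% of all tested genes called in either direction. The higher genes were Slc7a11 (2.49 ± 0.36, adjusted p = 0.00537), Eif4ebp1 (0.76 ± 0.12, adjusted p = 0.00528), Asns, Chac1, Atf3, Ppp1r15a and Cebpb. Chac1 was near the floor, with 6 to 11 counts in young, 10 to 21 in old and 18 to 32 in vutiglabridin libraries. Atf3 stood at 13.1, 13.9 and 9.04 CPM in young and 22.3, 22.5 and 20.5 CPM in old controls. After vutiglabridin it was at 27.0, 103.7 and 21.3 CPM. The lower genes were Phgdh (-0.66 ± 0.16, adjusted p = 0.0246) and Psat1 (-0.73 ± 0.17, adjusted p = 0.0188). Slc7a11 and Eif4ebp1 kept their calls with each of the 9 libraries left out. The count of 7 was 2 to 5 without any 1 library other than vutiglabridin replicate 3, without which it was 10. The 2 calls of lower genes were lost without young replicates 1 or 2.

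**Figure D4:**
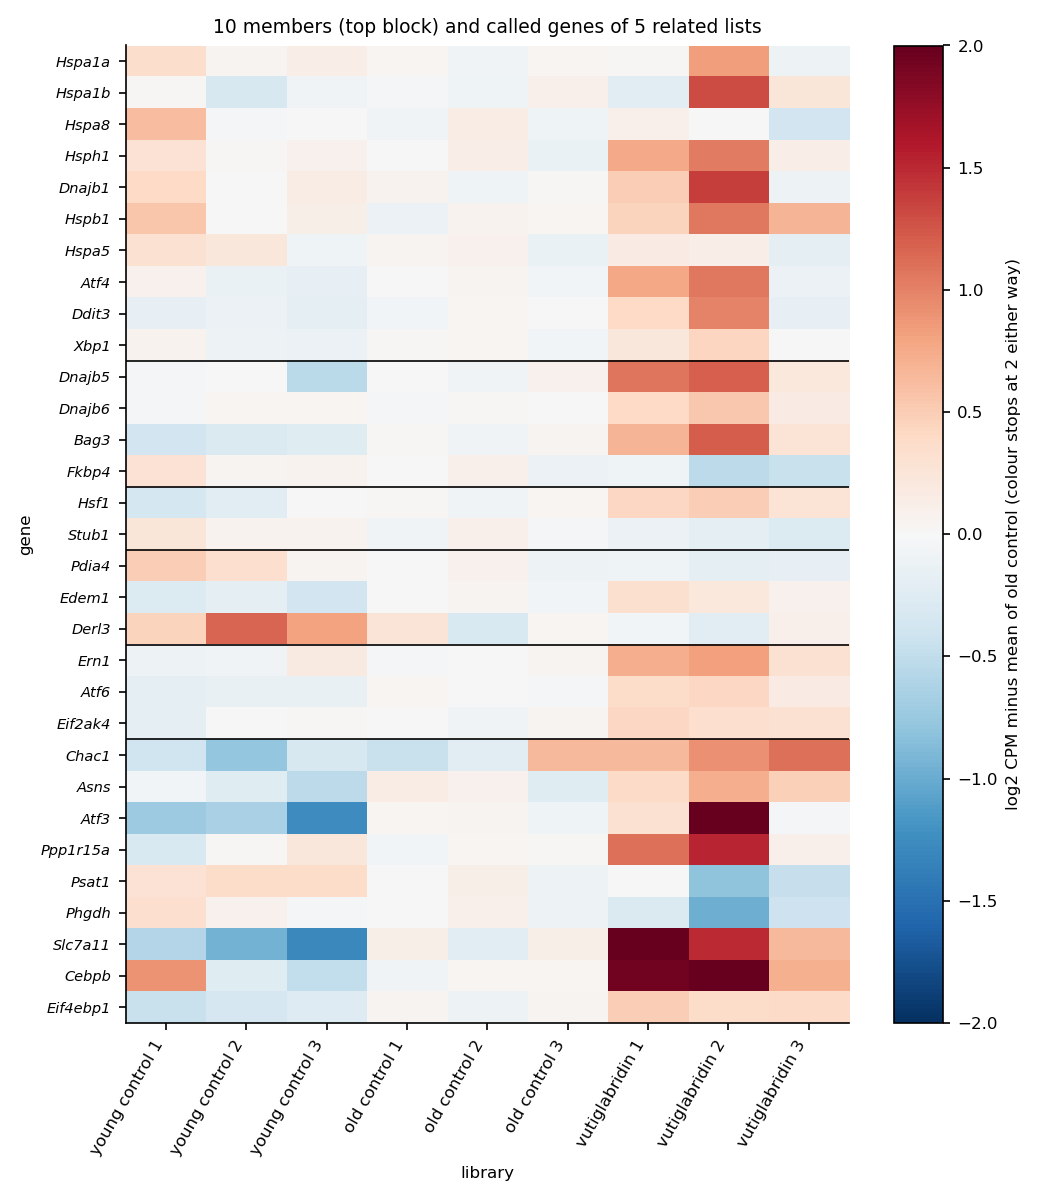
Log2 CPM minus the mean of the 3 old controls (colour, stopped at 2 either way) for the 10 members in the top block and 21 called genes of the 5 related lists in the blocks beneath, in the 9 libraries (columns). Red marks values above the old control mean: most members are red in vutiglabridin replicates 1 and 2 and, with Hspb1 and Hspa1b as exceptions, pale or blue in replicate 3, while Ern1, Eif2ak4, Bag3 and Slc7a11 are red in all 3.

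Immediate early genes, known to be transcribed soon after a stimulus, tissue handling included, were highest in the same libraries as most members. Their summed level over 20 genes was 286 to 395 CPM in young and 318 to 359 CPM in old controls, and 827, 1946 and 477 CPM in vutiglabridin replicates 1 to 3. That order, replicate 2 above 1 above 3, was also the order of Hspa1a, Hsph1, Dnajb1, Atf4, Ddit3 and Xbp1. With 3 libraries few orders are possible, and the share of all tested genes with that order was not counted. Between old control and vutiglabridin 4.34% of all tested genes were called in either direction. Of the 20 genes, 4 rose in that comparison, Dusp1 (2.15 ± 0.47, adjusted p = 0.0452), Fosl1, Fosl2 (2.48 ± 0.54, adjusted p = 0.0482) and Klf4, with a list median of 1.84. That count was 1, 0 and 2 without young replicates 1 to 3, 0 without any 1 old replicate, and 0, 4 and 17 without vutiglabridin replicates 1 to 3. It was 18 by DESeq2, 10 by limma-voom, 11 when genes needed 1 CPM in 3 libraries, 1 with no filter, and 0 with the replicate block or with only the 2 groups compared. Other tissue markers moved with replicate 2 as given above, and rod markers summed to 240, 558 and 725 CPM in the vutiglabridin libraries against 260 to 352 CPM in old controls. In every group 10 of 10 rod markers and 5 of 5 haemoglobin and erythroid markers reached a group mean of 1 CPM. Of 7 stratified epithelium markers 2, 4 and 6 reached it in young, old and vutiglabridin RPE, and Krt14 was at 0 in all 3 young libraries. Endothelium markers summed to 642 to 669 CPM in old controls and 681 to 755 CPM after vutiglabridin, fibroblast markers to 2375 to 2644 and 1851 to 2610 CPM, macrophage and microglia markers to 609 to 671 and 514 to 657 CPM, and 6 lens markers to 10.03 to 12.0 and 7.49 to 9.77 CPM. Skeletal muscle markers summed to 414, 554 and 135 CPM in the vutiglabridin libraries, against 148 to 376 CPM in old controls. The part of these differences in the values of the members was not tested.

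The genes most like Hspa5 and Ddit3 across the 9 libraries were sought among 11660 genes of mean level at least 10 CPM, as the 5 with the smallest root mean square difference in centred log2 CPM. For Hspa5 the nearest was Rabepk, its overlapping neighbour on the opposite strand, at 0.0198, followed by Atp6ap2, Tmed7, Eloc and Atg3 at 0.0406 to 0.0536. For Ddit3 they were Gm52122, Slc66a2, Nup210l, Nup98 and Eif4e at 0.0669 to 0.102. None of these 10 genes was called between vutiglabridin and old control. They were chosen for profiles close to those of Hspa5 and Ddit3, which were not called in that comparison either. The absence of calls therefore largely follows from the choice and is not a separate result. No other member was among them, because the rule left members out.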

How the data were processed

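Per the submitters' processing notes, reads were aligned with Bowtie2 2.3.4.1 and counted with featureCounts 1.6.0, and the build was GRCm38. The deposited chromosome versions are those of GRCm39, so coordinates of promoters and genes are on different builds, and none were converted or set beside promoter coordinates. The authors' deposited table holds 1 raw count per gene and library, and only these counts were used. Per the file headers it also holds an FPKM value, which was deposited by the authors and not used here. Genes kept by filterByExpr (25273) from 9 libraries entered 1 fit without covariates in edgeR 4.0.16 (quasi-likelihood, TMM, robust; R 4.3.3), and p-values were adjusted by Benjamini-Hochberg over all of them. Correlations between libraries of the same replicate number gave no sign of pairing. With 3 libraries a group they cannot exclude a shared preparation by number. No 2 libraries of a group agreed within sampling noise. DESeq2 1.42.0, limma-voom (limma 3.58.1), other size factors and filters, only the 2 groups compared, a replicate block, summed Hspa1a and Hspa1b, 7 libraries, and each library left out were alternatives. The fit was tested on simulated data. All members, up to 4 genes with the smallest p per list and comparison, called list genes and genes most like Hspa1a, Hspa5 and Ddit3 were named by rule, with exceptions stated. The genes most like Hspa1a are not reported here. Members and lists were chosen with earlier results of these data known.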

Additional observations from a re-analysis of the deposited data

How the results depend on the processing

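The count of members called was 0 in every alternative for old minus young. For vutiglabridin minus old control it was 3 by DESeq2, 3 by limma-voom, 1 when genes needed 1 CPM in 3 libraries, and 0 to 6 with 1 library left out. For vutiglabridin minus young control it was 3 by DESeq2, 4 by limma-voom, and 0 to 5 with 1 library left out. It was 0 for all 3 comparisons with the replicate block, with other size factors, with no filter, with only the 2 groups compared and with 7 libraries. Over all genes, the count for old minus young (424) was 949 by DESeq2, 2078 by limma-voom, 1239 with only the 2 groups compared, and 73 to 688 with 1 library left out. For vutiglabridin minus old control (1098) it was 3102 by DESeq2, 2709 by limma-voom, 178 with only the 2 groups compared, 317 with the replicate block, and 25 to 4092 with 1 library left out. For vutiglabridin minus young control (4222) it was 1041 with only the 2 groups compared, 1794 with 7 libraries, and 1775 to 6086 with 1 library left out. The replicate numbers gave no sign of pairing: 1 of 9 same-number correlations was over 0.1, and 6 of 18 checks put a library best with its own number.

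Signs turned only for uncalled values, and the cause was not tested. With the 7 libraries other than young replicate 1 and vutiglabridin replicate 2, Hspa8 for old minus young was 0.0098, Hspa1a, Hspa5 and Derl3 for vutiglabridin minus old control were -0.039, -0.0088 and 0.0056, and Hspa1a for vutiglabridin minus young control was -0.14. With total counts as size factors, Hspa5 for vutiglabridin minus old control was -0.021. With 1 library left out, Hspa8 ranged from -0.33 to 0.0096 for old minus young and from -0.19 to 0.049 for vutiglabridin minus old control. In the latter comparison Hspa1a ranged from -0.036 to 0.49, Hspa5 from -0.029 to 0.15 and Derl3 from -0.21 to 0.073. For vutiglabridin minus young control Hspa1a ranged from -0.21 to 0.31. Over the settings other than leaving out 1 library, the count of genes called higher between old control and vutiglabridin was 0 to 18 of the immediate early genes, 0 to 7 of the integrated stress response targets, 0 to 3 of the stress sensors, 0 to 3 of the other heat shock proteins and co-chaperones, and 0 to 1 of the heat shock factors. With 3 libraries a group, 1 library can decide a call.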
